A study of Mus musculus with 16 samples.

Results

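The NuRD complex (nucleosome remodelling and deacetylase) was followed through 10 genes, all 10 of which were found by symbol on 1 line each of both deposited count tables, among 26371 genes at basal state and 55304 in silenced cultures. They are the remodelling ATPases Chd3, Chd4 and Chd5, the methyl-CpG-binding-domain proteins Mbd2 and Mbd3, the scaffold proteins Mta1, Mta2 and Mta3, and the bridging proteins Gatad2a and Gatad2b. The rule names the genes and uses no measured value, but the genes were chosen with earlier results of these data known.

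Transcripts were measured by stranded poly(A) RNA sequencing of cultured cortical neurons from C57/BL6 embryos of day 17.5 to 19.5, with the cortices of 1 litter pooled for each replicate. All cultures carried an adeno-associated virus (AAV) with a short hairpin RNA from day 8 to day 13 in vitro. The hairpin was a control (shControl) or was directed at Nup153, a protein on the nuclear face of the nuclear pore (shNup153_1 or shNup153_2). Cultures were left at basal state or were silenced with tetrodotoxin, a sodium channel blocker, at 1 to 2 µM for 24 hours and with D-AP5, an NMDA receptor antagonist, at 100 µM for 6 hours. The basal groups held 4 shControl, 2 shNup153_1 and 2 shNup153_2 libraries, and the silenced groups held 3 shControl and 3 shNup153_2 libraries. Per the labels' protocols, only samples with sufficient Nup153 knockdown went on to sequencing, so the level of Nup153 checks the labels but is not an independent result. The sample descriptions of the knockdown libraries name the control virus, and groups were taken from the titles.

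NuRD joins 2 enzymatic activities in 1 complex. A CHD-family ATPase slides nucleosomes, and the histone deacetylases Hdac1 and Hdac2 remove acetyl groups from histone tails. The Mta scaffold holds the deacetylases and the histone-binding proteins Rbbp4 and Rbbp7, the Mbd protein attaches to that module, and the Gatad2 protein links Mbd to the ATPase. A complex holds either Mbd2, which binds methylated CpG, or Mbd3, which binds it weakly, and likewise paralogs of Chd, Mta and Gatad2 take the same place in different complexes. Chd5 is known for its expression in neurons, and Chd4 and Mbd3 are known for roles in cortical development and in the silencing of genes during synapse formation.

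Of the 10 genes, 7 had a promoter sequence in the RefSeq table that was used here (GRCm38.p6). The 250 bases before the annotated start are printed, 5′ to 3′, for the 4 members whose levels differed between groups in the results that follow, a choice made after their values were seen. Capitals mark TGACG on either strand, the core of the cAMP response element, which is bound by the activity-regulated factor CREB. It had 1 match each in Chd4, Chd5 and Gatad2a and none in Mta1, Mta2, Mbd3 or Gatad2b, and it had a match in 17.8% of 32851 windows of the same length. It was 1 of 4 motifs searched. Of the others, GGGCGG (GC box) had a match in all 7 members and in 32.7% of the windows. CCAAT matched in Mbd3, Gatad2a and Gatad2b (33.8% of the windows), and CCGGAA (ETS core) matched in Mta2 (12.0%). A match is a description of the letters and no evidence of binding.
Chd4 (chr6:125095731-125095980, plus strand): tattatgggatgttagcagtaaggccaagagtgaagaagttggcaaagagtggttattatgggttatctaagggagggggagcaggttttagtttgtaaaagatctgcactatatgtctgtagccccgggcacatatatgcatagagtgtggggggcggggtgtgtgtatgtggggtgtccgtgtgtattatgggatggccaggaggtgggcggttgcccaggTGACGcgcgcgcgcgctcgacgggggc
Chd5 (chr4:152338401-152338650, plus strand): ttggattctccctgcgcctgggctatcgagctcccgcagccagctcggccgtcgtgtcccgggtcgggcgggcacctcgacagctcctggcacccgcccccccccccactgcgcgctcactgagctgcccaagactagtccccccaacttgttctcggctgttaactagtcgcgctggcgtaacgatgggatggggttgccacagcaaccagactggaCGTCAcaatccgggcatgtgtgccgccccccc
Gatad2a (chr8:69996385-69996634, minus strand): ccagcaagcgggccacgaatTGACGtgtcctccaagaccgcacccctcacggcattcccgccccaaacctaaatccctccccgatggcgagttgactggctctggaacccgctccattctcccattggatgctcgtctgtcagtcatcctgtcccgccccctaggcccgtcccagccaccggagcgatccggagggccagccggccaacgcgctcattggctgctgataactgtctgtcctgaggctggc
Mta1 (chr12:113098028-113098277, plus strand): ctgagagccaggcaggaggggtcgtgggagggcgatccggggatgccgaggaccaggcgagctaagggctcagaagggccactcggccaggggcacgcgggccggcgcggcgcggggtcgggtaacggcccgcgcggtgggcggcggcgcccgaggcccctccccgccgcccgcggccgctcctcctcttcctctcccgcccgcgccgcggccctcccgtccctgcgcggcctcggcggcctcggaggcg
The Mta1 window was the richest of the 7 in G and C, at 80.8%, and the Chd4 window the poorest, at 54.0%.

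Library totals ranged from 26863535 to 56299817 counts. Levels are given as CPM, the count scaled to the normalized library total, with 1 scaling over all 14 libraries, and each value is read with the spread over libraries. Nup153 lay at 52.9 to 94.5 CPM in the 4 basal shControl libraries, at 17.1 and 28.0 with shNup153_1 and at 11.6 and 13.5 with shNup153_2. In silenced cultures it lay at 52.1 to 64.2 CPM with shControl and at 9.38 to 13.4 with shNup153_2. All 7 knockdown libraries were below all 7 control libraries. The basal shControl libraries fell into 2 pairs, 1 with 3 and 2 with 4: count differences per degree of freedom were 76.9 and 47.0 within the pairs and 134 to 272 across them. Of the neuronal markers, 10 of 10 were present in every library, with a summed level of 4645 to 8504 CPM, and 3 microglial markers that could be read summed to at most 1.57 CPM. Bulk RNA cannot tell fewer cells of a type from less RNA per cell.

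Among the basal control cultures the Chd3 ATPase was the most abundant member per kilobase of exon, at 104 ± 13.8 CPM per kb (SD, n = 4). Mbd3 followed at 36.8 ± 7.77 and Chd4 at 27.4 ± 2.35 CPM per kb. Next came Mta1 at 17.1 ± 1.84, Chd5 at 14.4 ± 2.27 and Mta2 at 13.5 ± 1.63 CPM per kb. The lowest levels were those of Gatad2b at 9.85 ± 3.48, Mta3 at 9.84 ± 0.99, Mbd2 at 7.89 ± 0.93 and Gatad2a at 4.16 ± 0.32 CPM per kb. In that order the neighbours Mbd3 and Chd4, Mta1 and Chd5, Chd5 and Mta2, Mta2 and Gatad2b, and Gatad2b and Mta3 were closer to each other than the sum of their SDs. Chd3 over Mbd3, Chd4 over Mta1, and Mbd2 over Gatad2a were separated by more than that, and Mta3 over Mbd2 by barely more. Lengths are those of all annotated exons, so the order is approximate.

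**Figure D1:**
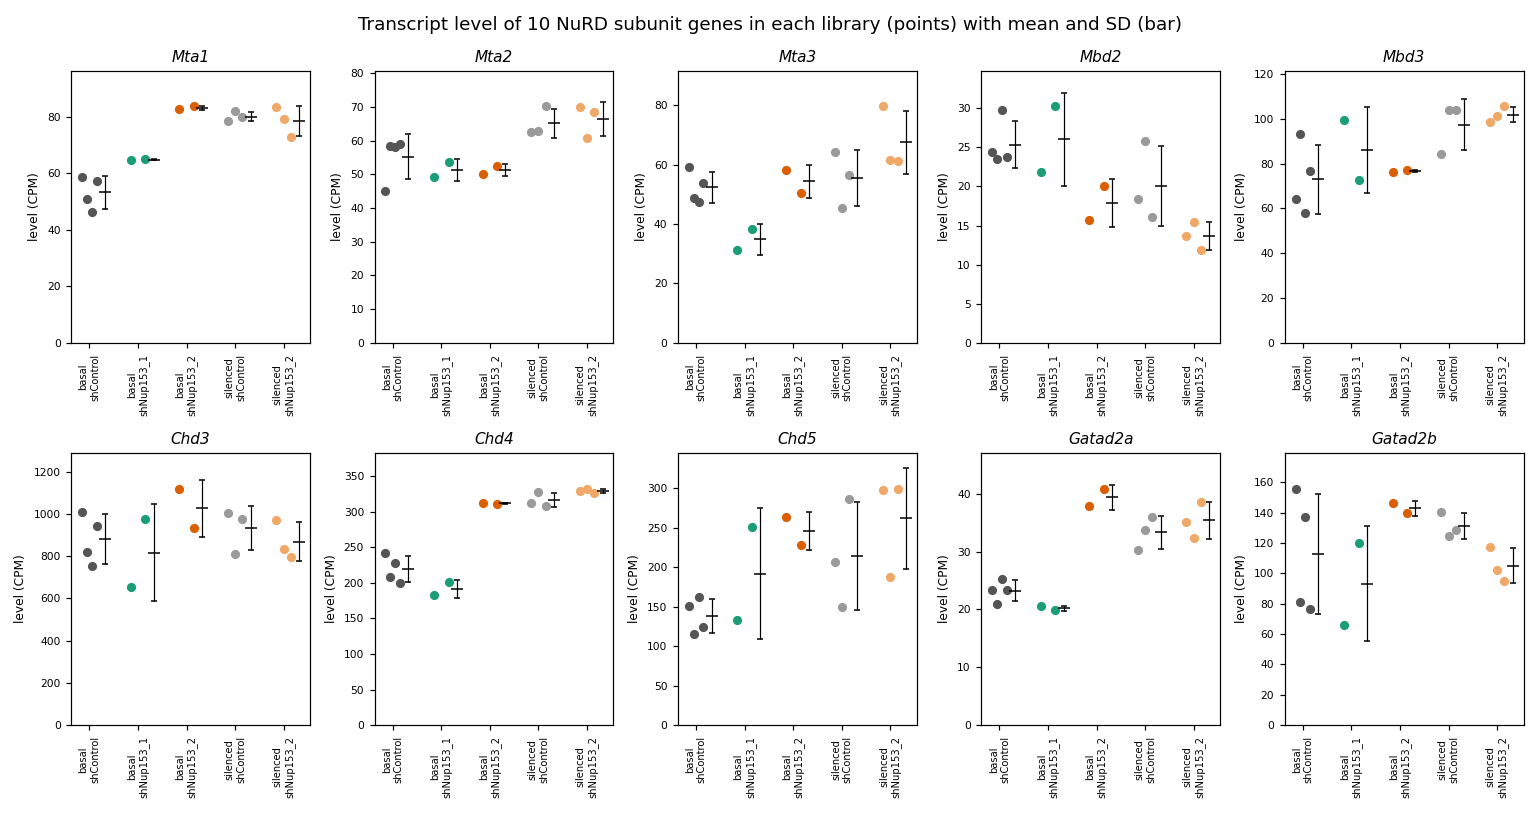
Level of each of the 10 NuRD subunit genes, in CPM on a linear axis from 0, in each of the 14 libraries (points), with the group mean and SD (bar). Chd4 and Gatad2a sit low in basal shControl and shNup153_1 and high in the other 3 groups, and Gatad2b and Chd5 spread widely in single groups.

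Chd4, the main NuRD ATPase of most tissues (chr6:125095981-125130591), had little spread within its groups. Positions are those of GRCm38. Its levels were 241, 209, 228 and 200 CPM in basal shControl and 182 and 201 with shNup153_1. They were 312 and 311 CPM with shNup153_2, 313, 327 and 308 in silenced shControl and 329, 333 and 326 in silenced shNup153_2. The 8 libraries of these last 3 groups all lay above the 6 basal libraries of shControl and shNup153_1. Such splits, here and for the members below, were read off the levels, and their share over all genes was not counted. In silenced against basal control cultures the rise was 0.47 ± 0.11 on the log2 scale (SE; FDR 0.0212). For shNup153_2 against shControl at basal state the log2 fold change was 0.48 ± 0.17 and missed the threshold (FDR 0.12). Under other settings that left out no library of these groups it ranged from 0.27 to 0.51. It passed in the joint fit of both states (0.51, FDR 0.0185), 1 of 13 other settings tried.

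Chd5, the ATPase whose expression is largely neuronal (chr4:152338651-152390194), varied more between libraries. It was at 150, 115, 162 and 124 CPM in basal shControl, at 133 and 250 with shNup153_1 and at 263 and 229 with shNup153_2. Silenced cultures had 206, 150 and 286 CPM with shControl and 298, 188 and 300 with shNup153_2. Both basal shNup153_2 libraries were above every basal control, while the 2 shNup153_1 libraries lay on either side of the highest control, and the silenced control group reached down into the basal range. Chd5 rose with shNup153_2 at basal state by 0.81 ± 0.20 (log2, FDR 0.0414), but missed the threshold with the replicate number as a block (0.86, FDR 0.0734). That call was lost without shControl replicate 2 (0.73, FDR 0.0566) or 4 (0.76, FDR 0.12) and without the filter on low counts (FDR 0.0555). It was also lost with the trend over transcript length removed (0.56, FDR 0.0528) and when the 3 basal groups were fitted together (FDR 0.0797). Without either shNup153_2 library the value was 0.70 and 0.91. With 1 knockdown library left, such a fit cannot judge the call, and the fall of Nup153 also missed the threshold there.

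Chd3, the most abundant ATPase, did not pass the test in any comparison (chr11:69343273-69369406). Its levels were 754 to 1011 CPM in basal shControl, 653 and 979 with shNup153_1 and 1121 and 932 with shNup153_2. In silenced cultures it ranged from 813 to 1005 CPM with shControl and from 797 to 974 with shNup153_2. The 5 groups overlapped.

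Mbd2 and Mbd3 take the same place in the complex, and their values for silenced against basal control cultures had opposite signs, neither past the threshold. Mbd2, the methyl-CpG binder, was at 24.4, 23.5, 29.8 and 23.7 CPM in basal shControl, at 21.8 and 30.3 with shNup153_1 and at 15.7 and 20.04 with shNup153_2. It was at 18.3, 25.8 and 16.0 CPM in silenced shControl and at 13.7, 15.4 and 11.8 in silenced shNup153_2. Both basal shNup153_2 libraries were below all basal controls, and each silenced shNup153_2 library was below every silenced control. The log2 fold change of shNup153_2 was -0.54 ± 0.20 at basal state (FDR 0.123) and -0.53 ± 0.20 in silenced cultures (FDR 0.206). With the replicate number as a block, the silenced value passed the test (-0.51, FDR 0.013).

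Mbd3, the paralog that binds methylated DNA weakly (chr10:80392539-80399550), was at 64.2, 93.1, 58.2 and 76.7 CPM in basal shControl, at 99.5 and 72.5 with shNup153_1 and at 76.4 and 77.0 with shNup153_2. In silenced cultures it was at 84.5, 104 and 104 CPM with shControl and at 98.7, 101 and 106 with shNup153_2. Knockdown changed it by less than its standard error in the 3 comparisons with shControl. The change of silenced against basal control cultures was 0.36 ± 0.16 (FDR 0.15), and it passed the test without basal shControl replicate 2 (0.51, FDR 0.0256).

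Mta1, the founding member of the scaffold family (chr12:113098278-113137206), was at 58.5, 50.8, 46.3 and 57.2 CPM in basal shControl. It was at 64.6 and 65.0 CPM with shNup153_1 and at 82.6 and 83.7 with shNup153_2. Silenced cultures had 78.5, 81.8 and 79.7 CPM with shControl and 83.5, 79.1 and 72.8 with shNup153_2. All 10 other libraries lay above the 4 basal controls, and the shNup153_1 libraries lay between those controls and the rest. Mta1 rose in silenced against basal control cultures by 0.53 ± 0.12 (log2, FDR 0.014). With shNup153_2 at basal state its log2 fold change of 0.61 ± 0.17 missed the threshold of 0.05 (FDR 0.0638), and it was called by DESeq2 (FDR 0.0291), with the length trend removed (FDR 0.0444), with the 3 basal groups fitted together (FDR 0.0389) and in the joint fit of both states (FDR 0.00651).

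Mta3 (chr17:83706163-83821516) stood apart with shNup153_1. It was at 31.2 and 38.5 CPM there, below all 12 other libraries. Those were at 59.1, 48.9, 47.6 and 53.7 CPM in basal shControl, at 58.3 and 50.4 with shNup153_2, at 64.3, 45.4 and 56.5 in silenced shControl and at 79.6, 61.5 and 61.2 in silenced shNup153_2. The log2 fold change of shNup153_1 was -0.61 ± 0.18 (FDR 0.0563). It passed under DESeq2 (-0.59, FDR 0.0196) and with the length trend removed (-0.59, FDR 0.0303). Mta2 (chr19:8941875-8952303) did not pass the test in any comparison, with 45.2 to 58.9 CPM in basal shControl, 49.1 to 53.7 in the 4 basal knockdown libraries and 60.8 to 70.2 in the 6 silenced ones.

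Gatad2a, which ties Mbd to the ATPase (chr8:69907076-69996384), followed the same split of groups as Chd4. It was at 23.4, 20.9, 25.3 and 23.3 CPM in basal shControl, at 20.5 and 19.8 with shNup153_1 and at 37.8 and 40.9 with shNup153_2. Silenced cultures had 30.3, 33.8 and 35.9 CPM with shControl and 35.2, 32.4 and 38.6 with shNup153_2. No library of the last 3 groups fell into the range of basal shControl and shNup153_1. Gatad2a rose with shNup153_2 at basal state by 0.73 ± 0.16 (log2, FDR 0.0321) and in silenced against basal control cultures by 0.47 ± 0.12 (FDR 0.0263). With the replicate number as a block the first value missed the threshold (0.79, FDR 0.141). The first call was lost without shControl replicate 4 (FDR 0.096). Without any 1 library the log2 fold change stayed between 0.68 and 0.78. Without either shNup153_2 library 1 was left in the group, too few to judge the call.

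Gatad2b, its paralog (chr3:90293178-90363407), split the basal controls into the same 2 pairs as the whole libraries did. Replicates 1 and 3 held 156 and 137 CPM, and replicates 2 and 4 held 81.4 and 76.4. It was at 66.3 and 120 CPM with shNup153_1 and at 146 and 139 with shNup153_2. In silenced cultures it was at 141, 124 and 129 CPM with shControl and at 118, 102 and 94.8 with shNup153_2, which did not overlap. The log2 fold change in silenced cultures was -0.30 ± 0.11 (FDR 0.208), and it passed with the replicate number as a block (-0.30, FDR 0.025). Other genes were split by the same pairs, replicates 1 and 3 against 2 and 4. Chd4 was at 241 and 228 against 209 and 200 CPM, and Chd5 at 150 and 162 against 115 and 124. Mbd3 was at 64.2 and 58.2 against 93.1 and 76.7 CPM, and Hdac2 at 162 and 151 against 228 and 198. Mta2, Mbd2 and Gatad2a were split more narrowly, and Chd3, Mta1 and Mta3 were not.

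The library pairs had other values beside them. The mean log2 CPM of 10 astrocyte markers was 7.04 and 6.75 in basal shControl replicates 1 and 3 and 4.53 and 6.004 in replicates 2 and 4. With shNup153_1 it was 5.76 in replicate 1, where Chd5 was at 133 CPM, and 7.55 in replicate 2, where Chd5 was at 250 CPM. In silenced cultures the order for Chd5 was the other way round. Replicate 2 had the highest astrocyte mean (5.82 with shControl and 6.12 with shNup153_2, against 2.89 to 4.18 in the other 4 libraries) and the lowest Chd5 level (150 and 188 CPM) of its group. Mbd2 was highest in these 2 libraries of their groups (25.8 and 15.4 CPM), and it kept that order at basal state. There it was at 24.4 and 29.8 CPM in shControl replicates 1 and 3 and at 23.5 and 23.7 in 2 and 4. It was also higher in replicate 2 than in replicate 1 with shNup153_1 (30.3 and 21.8 CPM) and with shNup153_2 (20.04 and 15.7 CPM). The part of these cells in the levels of Chd5, Gatad2b and Mbd2 was not tested.

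For shNup153_1 against shControl at basal state, 0 of the 10 subunit genes passed the test, while 13.6% of 14529 genes did. Mta3, 1 of the 10, had an unadjusted p below 0.05, and it was the 1 member that DESeq2 called. Over all genes 4284 of the 14529 had such a p. The median log2 fold change of the 10 was -0.13, beside -0.02 over all genes, and 4 of the 10 values were positive. Markers of the oligodendrocyte lineage moved in this comparison: 8 of 11 were higher, with a summed level of 786 and 787 CPM in the knockdown libraries and 114 to 285 in the controls. Of 7 excitatory neuron markers 2 were lower, with sums of 897 and 1520 CPM against 1557 to 2063, and of 10 interneuron markers 1 was higher, with sums of 2304 and 1537 CPM against 790 to 1415. Their part in the values of the NuRD genes, Mta3 and Hdac2 included, was not tested.

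For shNup153_2 against shControl at basal state, Chd5 and Gatad2a were higher and no member was lower. These are 2 of 10 genes, where 9.55% of 19682 genes passed in either direction and 5.91% were higher. The median log2 fold change of the 10 was 0.25, beside -0.03 over all genes, and 8 were positive. With the trend over transcript length removed, Chd3 (-0.04) and Mta3 (-0.08) turned negative, while Chd5 (0.56) and Mta1 (0.63) stayed positive. Astrocyte markers were at the upper end of the controls (6.78 and 7.23 mean log2 CPM, with 0 of 10 past the threshold), and their part was not tested. Both basal comparisons share the 4 shControl libraries, so their values are set side by side and not counted against each other. The hairpins were compared directly: Gatad2a was higher with shNup153_2 than with shNup153_1 by 0.96 ± 0.18 (log2, FDR 0.0299), the 1 member of 10 to pass, where 4.48% of 14529 genes passed and 2.81% were higher. Chd4 was next at 0.70 ± 0.19 (FDR 0.074), and Mta3 followed at 0.63 ± 0.20 (FDR 0.106). The Gatad2a call was lost when only the 2 hairpin groups were fitted (0.93, FDR 0.0579). Without any 1 of the 4 knockdown libraries the value was 0.90 to 1.01. A group was then left with 1 library, too few to judge the call.

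In silenced cultures, shNup153_2 against shControl gave 0 of 10 members past the threshold in the fit without pairing, where 3.45% of 18965 genes passed. Mbd2 and Gatad2b, 2 of the 10, had an unadjusted p below 0.05, as had 3745 of the 18965 genes, and DESeq2 called 0 of 10. The same-numbered silenced libraries deviated together and were taken as pairs. With the replicate number as a block, the fit that uses this pairing, 4161 of the 18965 genes and 3 of the 10 members passed. The members were Mbd2 and Gatad2b, lower, and Mta3, higher (0.31, FDR 0.0414, against FDR 0.38 without the block). Whether these members changed in silenced cultures thus depended on the use of the pairing. Mta1, Chd4 and Gatad2a, which were high in all silenced libraries, differed between the silenced groups by -0.01 ± 0.09, 0.08 ± 0.09 and 0.11 ± 0.11 on the log2 scale.

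**Figure D2:**
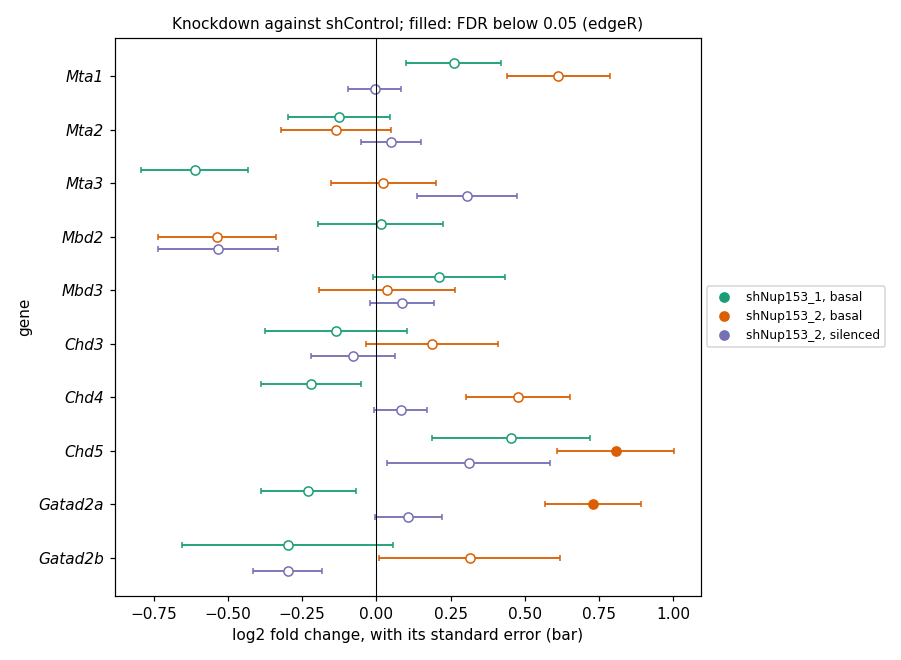
Log2 fold change (x axis) of each NuRD subunit gene for knockdown against shControl, with its standard error as a bar, for shNup153_1 and shNup153_2 at basal state and shNup153_2 in silenced cultures. Filled points passed FDR 0.05 in fits without a replicate block: Chd5 at 0.81 and Gatad2a at 0.73 with shNup153_2 at basal state.

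Silenced against basal control cultures gave 3 of 10 members higher (Mta1, Chd4 and Gatad2a) and 0 lower, where 12.4% of 20926 genes passed and 6.09% were higher. The median log2 fold change of the members was 0.28, beside -0.03 over all genes, and 9 of the 10 were positive. Mta1 kept its call without any 1 library. Chd4 lost it without any 1 silenced control (FDR 0.0506 to 0.0671), and Gatad2a without silenced replicate 2 (FDR 0.056) or 3 (FDR 0.101). Chd5, at 0.58 ± 0.23 (FDR 0.123), passed with the replicate number as a block (0.55, FDR 0.0196), a fit that called 4166 genes, and without silenced shControl replicate 2 (0.80, FDR 0.0449). The block is set within each state and also covers the basal libraries, which were not taken as paired by number. The states were deposited in separate tables and the labels name no batch that spans both, so the effect of silencing and any difference between the experiments cannot be told apart. In the same comparison 7 of 10 interneuron markers were lower, with a summed level of 478 to 524 CPM in silenced and 790 to 1415 in basal controls, and 3 of 12 oligodendrocyte markers were higher. Of 10 astrocyte markers 1 was lower, with a median log2 fold change of -1.47 and sums of 242 to 1217 CPM in silenced and 468 to 2612 in basal controls. Of 8 neural progenitor markers 2 were higher and 0 lower, with sums of 147 to 443 CPM in silenced and 276 to 476 in basal controls. Among them, Mki67 and Top2a averaged 18.2 and 18.3 CPM in silenced and 0.72 and 1.00 in basal controls. The part of these cell types in the 3 rises was not tested.

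With shNup153_2 in both states, 0 of 10 members passed between silenced and basal cultures, where 21.7% of 20926 genes did. Only Mta2, 1 of the 10, had an unadjusted p below 0.05 (0.34 ± 0.15, FDR 0.112). DESeq2 called 0 of 10, beside 5852 over all genes. Over all genes 8410 of the 20926 had such a p. The difference between the silencing effect with shNup153_2 and with shControl was tested as an interaction. It called 0% of the 20926 genes with edgeR (smallest FDR 0.0549), although 2393 had an unadjusted p below 0.05 and DESeq2 called 262. Mta1, Chd4 and Gatad2a, 3 of the 10 members, had an unadjusted p below 0.05, and DESeq2 called 0 of 10. The members with the smallest p were Mta1 (-0.65 ± 0.18, FDR 0.251) and Gatad2a (-0.65 ± 0.19, FDR 0.257), for both of which the silenced controls were higher than the basal ones and the silenced knockdown libraries were not. Whether knockdown changes the effect of silencing on these genes was not shown by this test.

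**Figure D3:**
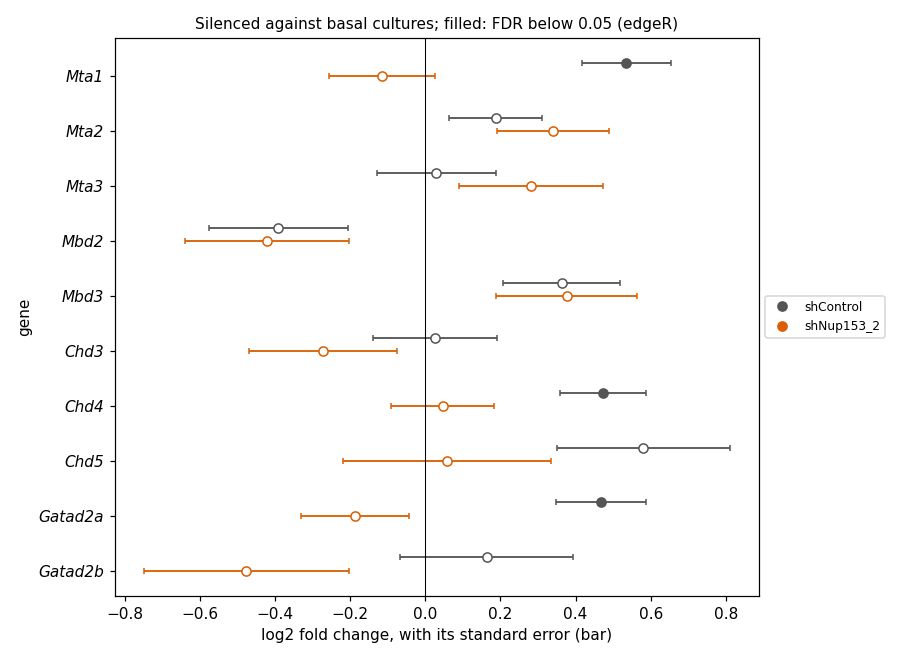
Log2 fold change (x axis) of each NuRD subunit gene for silenced against basal cultures, with its standard error as a bar, with shControl and with shNup153_2. The 3 filled points, Mta1 at 0.53, Chd4 at 0.47 and Gatad2a at 0.47, passed FDR 0.05 with shControl, and none passed with shNup153_2.

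Because the paralogs replace each other in the complex, the share of each in its family was computed per library from CPM per kb. In basal shControl, Mta1 took 42.3% of the Mta total, and it took 52.3% with shNup153_1 and 54.1% with shNup153_2. It took 49.5% in silenced shControl and 46.7% in silenced shNup153_2. All 4 basal knockdown libraries (50.7% to 54.7%) were above the basal controls (39.2% to 46.0%). Mta3 was below its control range in the same 4 libraries, with means of 24.3% in shControl, 16.3% with shNup153_1 and 20.6% with shNup153_2.

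Mbd2 took 18.2% of the Mbd total in basal shControl, 12.6% in basal shNup153_2, 11.3% in silenced shControl and 7.66% in silenced shNup153_2. Its range was 6.47% to 8.61% in the silenced knockdown libraries, below the lowest silenced control at 8.71%. Chd3 held most of the Chd total in all 14 libraries, from a mean of 71.3% in basal shControl to 60.0% in silenced shNup153_2, and the mean of Chd5 was 9.90% and 15.9% in these groups. The mean Gatad2a share was 30.97% in basal shControl and 40.9% in silenced shNup153_2. Over 40 exact permutation tests of such shares (two-sided), the smallest p was 0.0286, that of Mta3 in silenced against basal controls, and the adjusted p was 0.25 or above. The smallest p the designs allow is 0.0667 for 4 against 2 libraries, 0.1 for 3 against 3 and 0.0286 for 4 against 3, so single differences could not pass the adjusted threshold here.

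**Figure D4:**
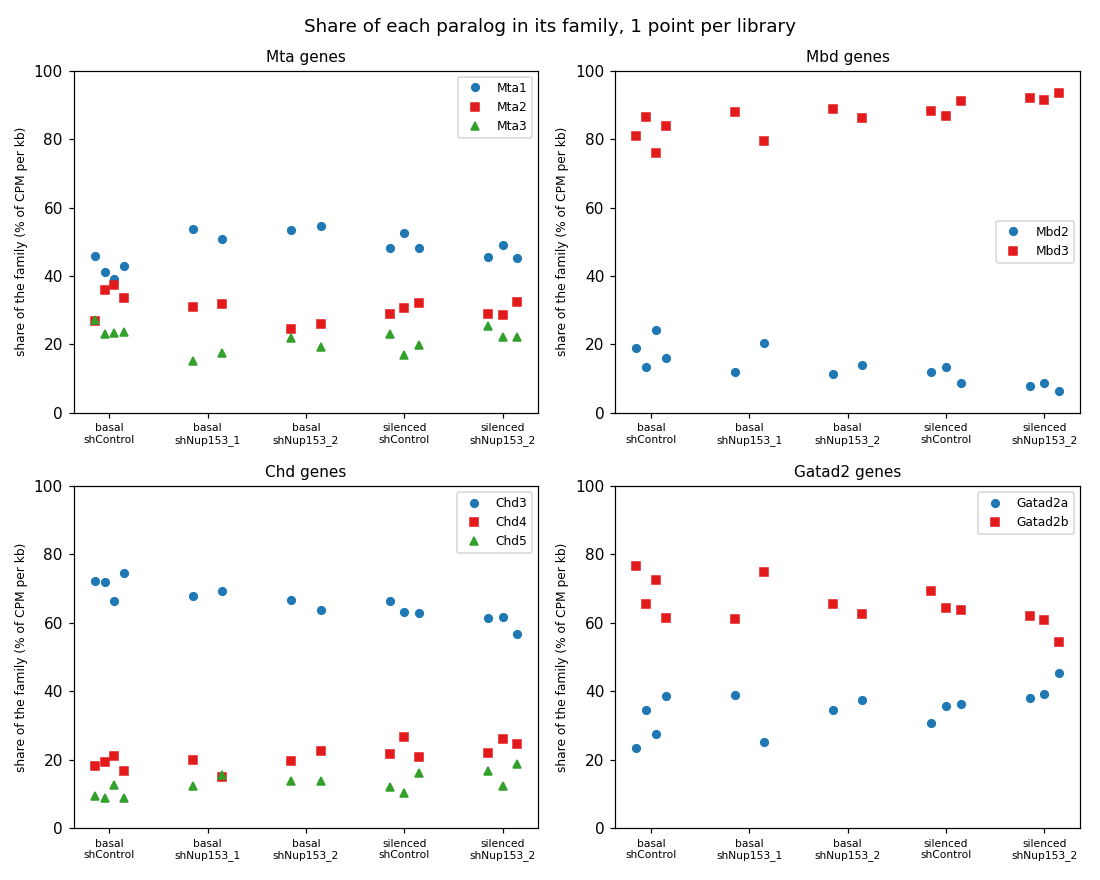
Share of each paralog in the summed level of its family (% of CPM per kb, from 0 to 100), 1 point per library in each of the 5 groups. The Mta1 share is 39.2% to 46.0% in the basal controls and 50.7% to 54.7% in the basal knockdown libraries, and the Mbd2 share is lowest in silenced shNup153_2.

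Of the enzymes and histone chaperones that the Mta scaffold holds, Hdac2 was lower in both basal knockdown comparisons. This more abundant of the deacetylases was at 162, 228, 151 and 198 CPM in basal shControl, at 71.2 and 60.4 with shNup153_1 and at 102 and 87.3 with shNup153_2. In silenced cultures it was at 234, 203 and 246 CPM with shControl and at 179, 151 and 204 with shNup153_2. It fell by 1.51 ± 0.22 with shNup153_1 (log2, FDR 0.00523) and by 1.00 ± 0.24 with shNup153_2 (FDR 0.039). In silenced cultures its value was -0.33 ± 0.14 (FDR 0.25), which passed with the replicate number as a block (-0.34, FDR 0.0136). The basal shNup153_2 call was lost without shControl replicate 4 (FDR 0.103). Without either knockdown library the value was -1.12 and -0.88, and the 1 library left was too few to judge the call.

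Rbbp4, a histone-binding chaperone, was at 101 and 104 CPM with shNup153_2 at basal state, below the 141 to 179 CPM of the controls, with a log2 fold change of -0.67 ± 0.19 (FDR 0.0632). It was called by DESeq2 (FDR 0.0184) and in the fit of 3 basal groups (FDR 0.0387). Of its exonic bases 18.1% lie opposite another gene, and the sources used here do not give the strand setting of the counting, so reads of the pair cannot be told apart. Rbbp7 and Hdac1 did not pass in any comparison with shControl. Between silenced and basal shNup153_2 cultures, Hdac1 (0.76 ± 0.19, FDR 0.0184), Hdac2 (0.88 ± 0.20, FDR 0.0138) and Rbbp4 (0.49 ± 0.14, FDR 0.0306) rose. Each call was lost without silenced shNup153_2 replicate 3 (FDR 0.0503 to 0.0977), and that of Rbbp4 also without silenced replicate 1 (FDR 0.0753). Without either basal knockdown library 1 was left in the group, too few to judge the calls. The values were then 0.76 and 0.78 for Hdac1, 1.00 and 0.79 for Hdac2, and 0.48 and 0.52 for Rbbp4. Summed interneuron markers were at 512 to 609 CPM in these silenced libraries and at 1333 and 1384 in the basal ones. Astrocyte markers were at 256 to 1385 and at 2345 and 2719 CPM, and 8 neural progenitor markers at 125 to 381 and at 469 and 778 CPM. Among the progenitor markers, Mki67 and Top2a averaged 20.2 and 20.3 CPM in the silenced and 0.42 and 1.80 in the basal libraries. The part of these cell types was not tested. Rbbp7 passed in that comparison with the replicate number as a block (0.63, FDR 0.0353), which also covers the basal libraries, not taken as paired. Cdk2ap1, a small NuRD-associated protein, rose with shNup153_1 (0.79 ± 0.21, FDR 0.0428).

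**Figure D5:**
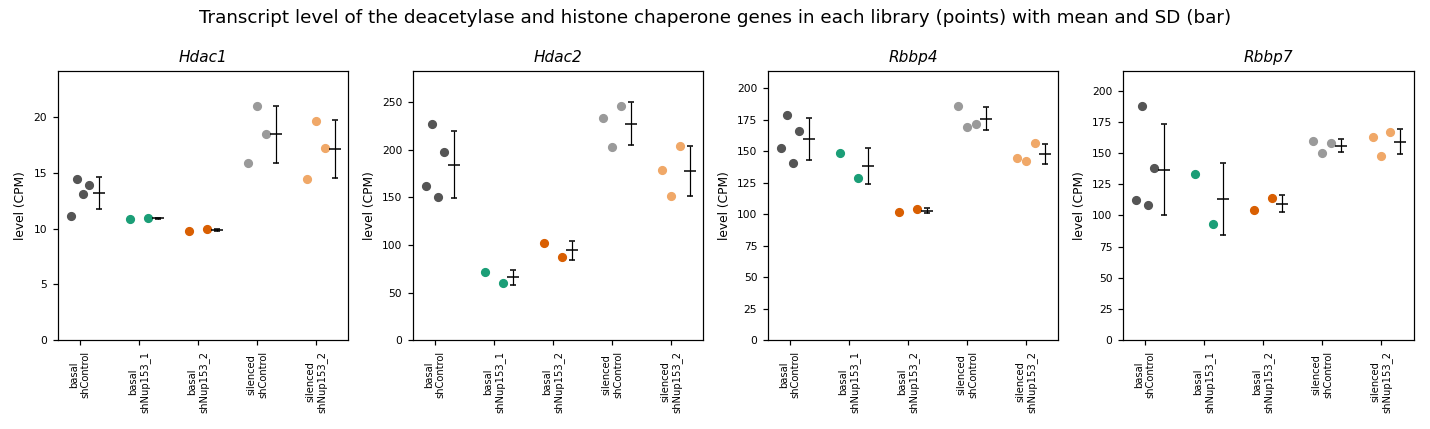
Level in CPM (linear axis from 0) of the deacetylase genes Hdac1 and Hdac2 and of the chaperone genes Rbbp4 and Rbbp7 in each library (points), with the group mean and SD (bar). Hdac2 is at 60.4 to 102 CPM in the 4 basal knockdown libraries and at 151 to 228 in the basal controls.

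Other chromatin genes give the setting for these counts. Of 17 NuRD partners and recruiting factors tested, Zfp219 rose (1.02 ± 0.24, FDR 0.0254) and Bcl11a fell (-0.84 ± 0.20, FDR 0.0268) with shNup153_1. With shNup153_2 at basal state Zfpm1, a cofactor of GATA proteins that binds NuRD, rose (1.62 ± 0.22, FDR 0.00633) and Sall2 fell (-1.09 ± 0.23, FDR 0.0292). In silenced cultures Pwwp2b rose with shNup153_2 (1.08 ± 0.19, FDR 0.0363). None of the 7 other CHD remodellers passed in a knockdown comparison (6 were tested with shNup153_1).

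Of the 26 SWI/SNF subunits, a remodelling complex separate from NuRD, 1 was higher and 2 were lower with shNup153_2 at basal state, with a median of 0.03 beside 0.25 for the NuRD members. The ATPase gene Smarca2 fell by 1.11 ± 0.24 there (FDR 0.0283), by 0.80 ± 0.22 with shNup153_1 (FDR 0.047) and by 0.83 ± 0.17 in silenced cultures (FDR 0.0477). Among 15 ISWI and INO80 genes the median was 0.34, above that of the members, and Baz2a passed (0.90 ± 0.22, FDR 0.0432). In silenced against basal controls 5 of 26 SWI/SNF genes were higher and 0 lower, among them Smarcd1 (0.94 ± 0.13, FDR 0.00137) and Smarca4 (0.74 ± 0.18, FDR 0.0199), and their median of 0.36 was above the 0.28 of the NuRD members. In that comparison the median was -0.14 for the ISWI and INO80 genes, -0.15 for the other CHD remodellers and 0.03 for the DNA methylation enzymes.

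By the correlation of log2 CPM over the 12 libraries other than shNup153_1, among 15025 genes, the profile of Mta1 was most like that of Grin1, the obligatory NMDA receptor subunit (r = 0.95), and Ttyh3 (r = 0.94). Mbd2 was most like Mt2, a metallothionein (r = 0.98), and Tob1 (r = 0.98). Chd5 was most like Cdr2l (r = 0.98) and Rn7s1 (r = 0.96), and the profile of Gatad2a was like that of Itprip (r = 0.97). The libraries differ in state, hairpin and depth, so these values are a description of profiles across 4 groups.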

How the data were processed

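Per the submitters' processing notes, reads were checked with FastQC and assigned to genes with featureCounts 2.0.1 (mm10). The authors deposited the unscaled counts. The sources used here do not give the aligner, the annotation, the strand setting or how reads that match several genes were treated. The basal table holds 2 columns of the same name that could not be assigned to a sample and were not used. Across genes the shNup153_1 columns correlated with shControl at 0.974 up to line 16399 of that table and at 0.105 beyond it (shNup153_2: 0.949), so comparisons with shNup153_1 used the lines up to 16399, with totals from all lines, and other comparisons left these columns out.

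Counts were filtered with filterByExpr (minimum count 10), scaled by TMM, and tested by edgeR 4.0.16 (quasi-likelihood F test) in R 4.3.3, with Benjamini-Hochberg adjustment over all genes of a fit and a threshold of 0.05 (FDR). The fits were the 3 basal groups together (shNup153_1 against shControl and the 2 hairpins against each other), basal shControl and shNup153_2, the silenced groups, and the 12 libraries other than shNup153_1 for the comparisons between states and the interaction. An SE is the log2 fold change divided by the root of F. Alternatives were DESeq2 1.42.0, no filter, a replicate block, other sets of samples in the fit, each library left out, and, chosen after seeing the data, removal of a smooth trend over transcript length. The script was tested on simulated data. Exon lengths and positions come from GENCODE M21 (GRCm38, the assembly of mm10), and promoters from RefSeq. Of exonic bases, 0.79% in Chd4 overlap a microRNA gene, and 1.05% in Chd5 and 2.16% in Gatad2b lie opposite another gene.

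The members and gene lists were chosen with earlier results of these data known. Named were the 10 members, Nup153, Hdac1, Hdac2, Rbbp4, Rbbp7 and up to 4 genes past the threshold from each other list, smallest p first, and for likeness the 2 best correlated genes for the most changed member of each family. Some results that this rule would name are not reported here. Same-numbered silenced libraries correlated in their deviations from the group means at 0.294, 0.573 and 0.616, which was taken as pairing by number. The labels give 1 litter per replicate and do not say whether equal numbers share one.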

Additional observations from a re-analysis of the deposited data

Results flagged for a closer look

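In 3 of the measurements of the NuRD genes, 1 of the 4 basal shControl libraries lay far from the other 3 by Dixon's ratio of the gap to the range, which chance exceeds in about 1 of 20 groups. The ratio was computed for the levels and for the family shares of all 10 genes, so some such values can arise by chance. Mta2 was low in replicate 1 (45.2 CPM against 58.2 to 58.9, ratio 0.9508), Mbd2 was high in replicate 3 (29.8 CPM against 23.5 to 24.4, ratio 0.8574), and the share of Mta3 in the Mta family was high in replicate 1 (27.1% against 23.1% to 23.5%, ratio 0.8881). Replicate 1 was also the deepest library, with 56299817 counts. The part of depth was not tested.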

How the results depend on the processing

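Of 890 values of the 10 members under other settings, 813 kept their direction and side of the threshold, 40 changed sign, 23 lost a call and 14 gained one. Most of the 890 had no call to lose. Chd5 and Gatad2a with shNup153_2 at basal state kept their calls in 5 and 9 of 13 settings, those with a lone library included. Gatad2a between the hairpins kept its call in 4 of 10. Between the states with shControl, Mta1, Chd4 and Gatad2a kept theirs in 13, 10 and 11 of 13. The cause of these changes was not tested. DESeq2 called 3093 genes for shNup153_1 against shControl, 3513 for shNup153_2 at basal state, 1608 in silenced cultures, 2093 between the hairpins and 262 for the interaction. Between the states it called 3623 genes with shControl and 5852 with shNup153_2. It called 1 member with shNup153_1 (Mta3) and 2 between the hairpins (Gatad2a and Chd4).

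The replicate number as a block called 0 genes for shNup153_1 against shControl and 0 between the hairpins (0 members). It called 0 members with shNup153_2 at basal state (Chd5 and Gatad2a lost, FDR 0.0734 and 0.141), 4161 genes and 3 members in silenced cultures, 4166 genes between the states with shControl and 2 for the interaction. With a block, Mta3 (-0.024) and Mbd3 (-0.047) changed sign with shNup153_2 at basal state, as did Chd5 between the states with shNup153_2 (-0.018). At basal state 2 numbers are shared, at correlations of 0.235 and 0.0522, so these libraries are taken to share a number only.

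Only the 2 groups compared in a fit gave 1203 genes for shNup153_1 and 0 members between the hairpins. The joint fit of both states called 3833 genes and 4 members with shNup153_2 at basal state, and without a filter on low counts it was 1 member, with 3 genes for the interaction. With the length trend removed 1 member was called with shNup153_1, 1160 genes between the hairpins and 6 for the interaction, and signs changed for Mta3 (-0.079) and Chd3 (-0.040) with shNup153_2 at basal state, Mbd3 (0.078) and Rbbp7 (0.071) between the hairpins, Chd3 (0.063) and Nup153 (0.039) between the states with shNup153_2, and Mbd3 (-0.044) in the interaction. With shNup153_1 added to the joint fit the interaction called 6 genes and Mbd3 was at -0.0071.

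With 1 library left out at a time, a lone library is assumed to vary like the others. A fit with a lone library cannot judge single calls. The fall of Nup153 with shNup153_2 at basal state also missed the threshold in such fits. Genes called ranged from 356 (without shNup153_1 replicate 1) to 2050 for shNup153_1 against shControl, from 15 (without shNup153_2 replicate 2) to 2211 for shNup153_2 at basal state (0 to 2 members), from 4 to 659 in silenced cultures, from 0 to 500 between the hairpins (0 to 0 members), from 1069 to 3426 between the states with shControl (1 to 4 members), from 841 to 4003 with shNup153_2, and from 0 to 12 for the interaction. The log2 fold changes that changed sign with 1 library left out had these ranges. For shNup153_1 against shControl at basal state, Mbd2 -0.25 to 0.23, Mbd3 -0.028 to 0.41, Chd3 -0.47 to 0.13, Chd5 -0.081 to 0.84, Gatad2b -0.80 to 0.070. For shNup153_2 against shControl at basal state, Mbd3 -0.060 to 0.18, Mta3 -0.090 to 0.13. For shNup153_2 against shControl in silenced cultures, Mbd3 -0.021 to 0.13, Mta1 -0.068 to 0.051, Mta2 -0.0055 to 0.11, Hdac1 -0.20 to 0.0082. For the hairpins against each other, Mbd3 -0.38 to 0.067, Chd5 -0.039 to 0.88, Mta2 -0.079 to 0.064, Rbbp7 -0.29 to 0.22. For silenced against basal controls, Chd3 -0.026 to 0.13, Mta3 -0.080 to 0.17. For silenced against basal shNup153_2, Chd5 -0.057 to 0.25. For the interaction, Mbd2 -0.19 to 0.17, Mbd3 -0.15 to 0.097, Nup153 -0.11 to 0.21.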
